A study of Rattus norvegicus with 42 samples.

Results

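The genes described here are 10 markers and regulators of the retinal vessel wall, chosen by name: Vwf, Plvap, Pecam1, Cdh5, Kdr, Cldn5, Tek, Apln, Angpt2 and Vegfa. A row of that name was found for 9 of the 10 among the 32623 genes of the count table, and Pecam1 was not analysed here. All 9 passed the filter on low counts, which left 18094 genes to test. PolyA RNA of retinas from adult rats was sequenced in 6 groups, each library being labelled a biological replicate; the sources used here do not give strain, exact age or sex. The groups were untreated controls (n = 5), light damage alone (n = 7), vehicle alone (n = 5), vehicle plus light damage (n = 5), nanoceria alone (n = 4) and nanoceria plus light damage (n = 5). Light damage was an exposure to 15000 lux for 24 h, which is used to make photoreceptors degenerate. Nanoceria are cerium oxide nanoparticles, given at 1 mM into the vitreous, the gel that fills the eye, and the vehicle was given by the same route. The sources used here give no time from injection to light or from light to dissection. The labels list 42 samples, of which 31 were analysed and 11 were not analysed here.

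Capillaries of the inner retina form a tight barrier between blood and neural tissue, while the vessels of the choroid behind it are leaky. VEGF-A, made by glia, neurons and pigment epithelium, acts through the receptor VEGFR2 on endothelial cells to drive vessel growth and permeability. Angiopoietin 2 opposes the stabilising signal of the receptor Tie2, and apelin marks endothelial cells that sprout. Claudin-5 and VE-cadherin hold endothelial cells together, and loss of barrier function is a feature of many retinal diseases. RNA of the whole retina was measured, so fewer cells of a type and less RNA per cell cannot be told apart.

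Total counts lay between 25158407 and 182162368 per library, and the lowest raw count of any of the 9 genes in any library was 154 (Apln). Both lowest values are from light damage 1, and the next lowest total was 73369026 (vehicle 3). Light damage 1 also had the lowest TMM factor, 0.812, and only 1 of the 9 genes lay below its group mean there. It gave the highest light damage level of Apln (7.54 CPM) and of Vegfa (253 CPM). Levels below are CPM, counts scaled to a common library total after TMM normalisation. Summed levels of gene lists are the exception, scaled to the library total alone without TMM. CPM are not divided by gene length, so levels of different genes are not compared. Vehicle 4 and 7, and light damage 4 and 7, were much closer to each other than any other pair of libraries (mean chi-square per gene 4.40 and 10.5, against 70.7 for the next pair). They still differed by more than sampling noise and were kept as separate replicates, but the sources used here do not say whether such a pair shares an animal or an RNA sample, so n may be 1 lower in these groups. Summing each pair to 1 library left every edgeR call on the 9 genes as it was. Libraries with high Y-linked transcripts were mixed unevenly over the groups, at 4 of 5 in control, 4 of 7 in light damage, 1 of 5 in vehicle, 2 of 5 in vehicle plus light, 2 of 4 in nanoceria and 3 of 5 in nanoceria plus light. Nanoceria plus light 5 stood apart, with 8 of the 9 genes and 20 of 21 other endothelial genes below their group mean, the latter by a median of -0.73 on the log2 scale. Of 8 rod genes, 7 fell with light over the 3 injection states, where 16.6% of all tested genes did, and the list's median log2 fold change was -1.24. The summed level of 12 lens genes ranged from 4811 to 29940 CPM in the vehicle libraries and from 656 to 8017 CPM in the controls, and none of the 12 was called with light. The part of rod loss, lens and other tissue in the levels of the 9 genes was not tested. Of the endothelial markers, none of the 5 that were measured among the 9 genes (Cdh5, Kdr, Cldn5, Tek, Vwf) and none of 21 others was at 0 in all libraries.

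Light changed 4 of the 9 genes in retinas that were not injected, where 22.5% of all tested genes were called at an edgeR adjusted p under 0.05. Vwf, Apln and Angpt2 rose (11.9% of all tested genes did) and Kdr fell (10.6%). After vehicle, light changed 3 of the 9, against 16.8% of all tested genes: Vwf and Vegfa rose (9.67% of all tested genes) and Kdr fell (7.17%). After nanoceria it changed 2 of the 9, against 13.9% of all tested genes: Vegfa rose (8.15% of all tested genes) and Kdr fell (5.78%). In the mean of the 3 responses to light, 4 of the 9 were called, against 37.1% of all tested genes, with Vwf and Vegfa higher (20.5% of all tested genes) and Kdr and Cldn5 lower (16.6%). With shares this large among all genes, the counts by themselves do not set the 9 genes apart. The median log2 fold change of the 9 genes was 0.27 without injection, -0.06 after vehicle and -0.25 after nanoceria, and that of all tested genes was -0.01, 0.02 and 0.04.

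**Figure D1:**
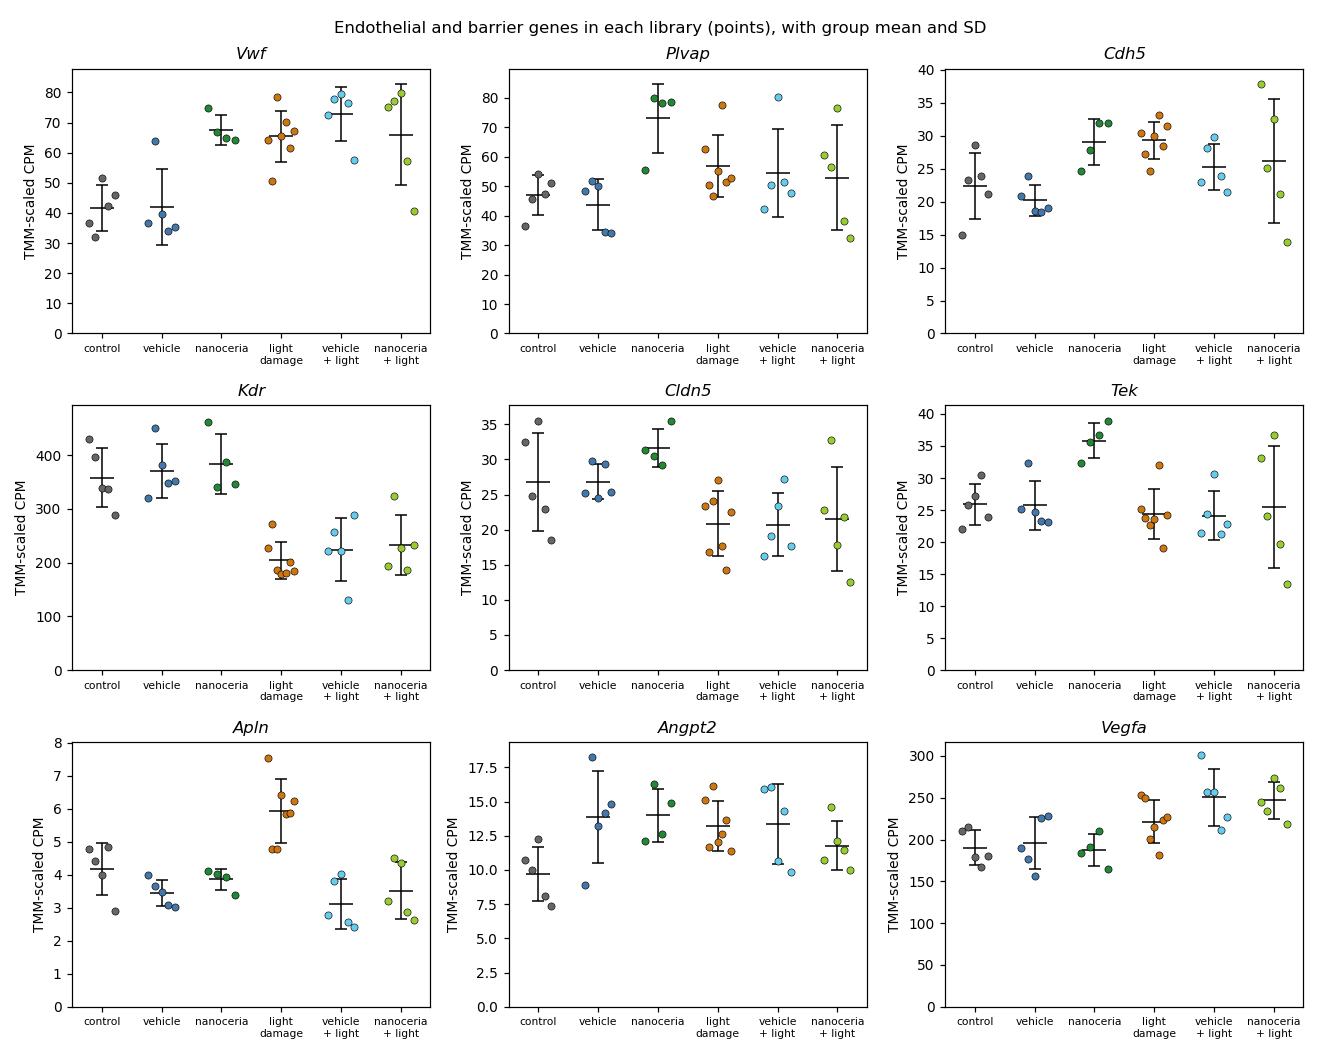
Level of each of the 9 measured genes (TMM-scaled CPM, linear axes from 0) in every library of the 6 groups; points are libraries, the long bar is the group mean and the whiskers are 1 SD. Kdr is lower in the 3 light groups than in the matching groups without light, and Apln is higher in light damage alone than in any injected library under light.

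Kdr encodes VEGFR2, the main signalling receptor for VEGF-A on endothelial cells, and has also been described in retinal neurons. The table lists it as ENSRNOG00000046829. In the 5 control libraries its level was 431, 396, 339, 337 and 289 CPM, and in the 7 light damage libraries it was 178 at the lowest, 186 at the median and 272 at the highest. Every light damage library lay below every control, as was the case for 4.79% of all tested genes in that direction. The log2 fold change was -0.81 ± 0.15 (SE; edgeR adjusted p = 0.000279), a level of 0.57 times the control. The vehicle libraries read 321, 451, 382, 349 and 351 CPM and the vehicle plus light libraries 222, 257, 222, 131 and 289. Here too the groups did not overlap, as for 6.01% of all tested genes, and the log2 fold change was -0.73 ± 0.17 (SE; edgeR adjusted p = 0.00296). With nanoceria alone the level was 462, 341, 387 and 347 CPM, and with nanoceria plus light it was 194, 324, 227, 186 and 232. All 5 libraries with light were below all 4 without, as for 5.54% of all tested genes, and the log2 fold change was -0.72 ± 0.18 (SE; edgeR adjusted p = 0.00595). The fall had the same size without nanoceria plus light 5 (log2 fold change -0.72, edgeR adjusted p = 0.0116). Averaged over the 3 injection states, Kdr changed by -0.75 ± 0.10 (SE; edgeR adjusted p = 3.9e-07), and it stayed called under every alternative and with each library left out. From low to high, the group means were 204 ± 34.3 in light damage, 224 ± 59.2 in vehicle plus light, 233 ± 55.1 in nanoceria plus light, 358 ± 55.5 in control, 371 ± 49.8 in vehicle and 384 ± 55.8 CPM in nanoceria (SD). Each group overlapped its neighbour in that order, since nanoceria plus light 2 read above the lowest control.

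The start of the Kdr gene is shown because this gene had the lowest adjusted p for light of the 9, and because the hypoxia response, which acts through the core letters ACGTG or GCGTG, is a known regulator of vessel genes. The stretch runs from 250 bases before to 50 after the start in RefSeq (build GRCr8, chr14:32571813-32572112, plus strand), and capitals mark the matches to those letters on either strand.
Kdr: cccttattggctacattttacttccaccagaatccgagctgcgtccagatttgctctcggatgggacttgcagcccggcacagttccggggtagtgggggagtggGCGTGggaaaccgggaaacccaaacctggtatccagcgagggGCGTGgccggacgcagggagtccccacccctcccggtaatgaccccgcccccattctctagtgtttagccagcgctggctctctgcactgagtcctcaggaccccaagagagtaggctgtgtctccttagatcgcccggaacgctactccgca
It held 2 matches, which begin at -145 and -103 from the gene start, and 41.6% of 33469 promoters of the same length held at least 1. No match was found to the AP-1 letters TGANTCA (7.33% of promoters) or the STAT letters TTCNNNGAA (8.87% of promoters). The ETS core GGAA, read by factors that act in endothelial genes, occurred 5 times, and 95.8% of promoters held it. These are matches of letters, and binding was not measured.

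Tek encodes Tie2, the angiopoietin receptor that keeps vessels quiet. Its level was 22.1, 25.7, 27.2, 30.4 and 23.9 CPM in the controls and 19.1 at the lowest, 23.8 at the median and 32 at the highest in light damage, and the ranges overlapped almost fully. The log2 fold change with light was -0.09 ± 0.16 (SE; edgeR adjusted p = 0.772) without injection and -0.09 ± 0.18 (SE; edgeR adjusted p = 0.798) after vehicle. After nanoceria the level was 32.3, 35.5, 36.6 and 38.9 CPM without light and 33.2, 24, 36.7, 19.8 and 13.5 with it. Nanoceria plus light 4 and 5 were the lowest of that group, while 1 and 3 lay within the range without light. The log2 fold change was -0.50 ± 0.19 (SE; edgeR adjusted p = 0.0785), and without nanoceria plus light 5 it was -0.34 (edgeR adjusted p = 0.182). It was called without nanoceria plus light 1 (adjusted p = 0.034) or 3 (0.016), by the Wald test of DESeq2 (0.0367) and with a term for Y-linked transcripts (0.0495). The mean response to light was -0.23 ± 0.10 (SE; edgeR adjusted p = 0.085); it was called with light damage 5 (adjusted p = 0.0492), vehicle plus light 3 (0.0468) or nanoceria plus light 1 (0.0412) or 3 (0.0215) left out.

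Cldn5 encodes claudin-5, the main tight junction protein of barrier endothelium. It was listed at 32.5, 24.8, 35.5, 22.9 and 18.5 CPM in the controls and at 14.3 at the lowest, 22.5 at the median and 27.1 at the highest in light damage. The vehicle libraries held 25.3, 29.7, 24.5, 29.3 and 25.3 CPM, and vehicle plus light 16.3, 19.1, 23.4, 27.2 and 17.7. Of the 5 vehicle plus light libraries, 4 lay below every vehicle library. The nanoceria libraries held 31.4, 30.6, 29.2 and 35.5 CPM, and nanoceria plus light 22.8, 32.7, 17.9, 21.8 and 12.5. Here 4 of the 5 libraries with light lay below all 4 without it. None of the 3 responses was called alone, with log2 fold changes of -0.37 ± 0.18 (SE; edgeR adjusted p = 0.169), -0.37 ± 0.20 (SE; edgeR adjusted p = 0.231) and -0.56 ± 0.21 (SE; edgeR adjusted p = 0.0829) in the uninjected, vehicle and nanoceria states. Limma-voom called the vehicle value (adjusted p = 0.0168) and the nanoceria value (0.0103), and the latter was also called by the Wald test of DESeq2 (0.044), with the replicate number as a block (0.0219) and without nanoceria plus light 2 (0.0113). Their mean of -0.43 ± 0.12 (SE; edgeR adjusted p = 0.00374) was called, and it stayed called under every alternative and with each library left out. The promoter is shown as that of the second gene that fell with light in the mean of the 3 states (RefSeq, GRCr8, chr11:95718549-95718848, minus strand, same window).
Cldn5: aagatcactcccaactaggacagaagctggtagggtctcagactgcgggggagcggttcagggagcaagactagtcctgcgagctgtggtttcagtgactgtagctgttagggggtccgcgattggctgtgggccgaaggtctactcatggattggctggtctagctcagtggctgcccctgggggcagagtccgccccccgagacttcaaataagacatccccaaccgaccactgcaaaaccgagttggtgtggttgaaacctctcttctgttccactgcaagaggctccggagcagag
It held no match to the hypoxia core, AP-1 or STAT letters and 1 match to the ETS core.

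Cdh5 encodes VE-cadherin, the adhesion protein of endothelial junctions. Its level was 15, 23.3, 28.6, 23.9 and 21.1 CPM in the controls and 24.6 at the lowest, 29.9 at the median and 33.1 at the highest in light damage. Of the 7 light damage libraries, 4 were above every control and 3 were below control 4, the highest. The difference was 0.39 ± 0.17 (SE; edgeR adjusted p = 0.096) on the log2 scale; limma-voom called it (adjusted p = 0.0482), as did edgeR without control 4 (0.0487). It was 0.32 ± 0.18 (SE; edgeR adjusted p = 0.243) after vehicle and -0.15 ± 0.19 (SE; edgeR adjusted p = 0.676) after nanoceria. The nanoceria plus light libraries were the most spread, from 13.8 to 37.8 CPM. The mean response was 0.19 ± 0.10 (SE; edgeR adjusted p = 0.164), and without nanoceria plus light 5 it was 0.24 and called (edgeR adjusted p = 0.0271). Limma-voom called the vehicle value (0.40, adjusted p = 0.028) and the mean (0.0262).

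Plvap encodes the protein that forms the diaphragms of endothelial vesicles and fenestrae, and is low in mature barrier capillaries and high in the choroid. Its level was 36.5, 45.5, 54.2, 47.3 and 51.1 CPM in the controls and 46.7 at the lowest, 52.8 at the median and 77.6 at the highest in light damage, with ranges that overlapped. The vehicle libraries held 48.2, 51.6, 49.9, 34.5 and 33.9 CPM and vehicle plus light 42.3, 50.2, 80.3, 51.3 and 47.6. Library 3 of the latter was far above the other 4. With nanoceria plus light the level was 60.4, 56.5, 76.5, 38.2 and 32.4 CPM, and libraries 4 and 5 were below all 4 with nanoceria alone. No response to light was called: the log2 fold change was 0.27 ± 0.18 (SE; edgeR adjusted p = 0.33) without injection, 0.32 ± 0.20 (SE; edgeR adjusted p = 0.317) after vehicle and -0.47 ± 0.21 (SE; edgeR adjusted p = 0.145) after nanoceria. The vehicle value was 0.13 (edgeR adjusted p = 0.719) without vehicle plus light 3, and limma-voom called it (0.50, adjusted p = 0.0273). The nanoceria value was called without nanoceria plus light 3 (-0.64, adjusted p = 0.0428) and was -0.33 (0.316) without 5.

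Vwf encodes von Willebrand factor, a clotting protein stored in endothelial granules and in platelets (ENSRNOG00000019689). In the controls it was measured at 36.7, 32, 51.5, 42.4 and 45.9 CPM, and in light damage at 50.6 at the lowest, 65.6 at the median and 78.6 at the highest. All but 1 light damage library were above the whole control range. This gave a log2 fold change of 0.65 ± 0.16 (SE; edgeR adjusted p = 0.00322), or 1.57 times the control level. The vehicle libraries read 36.5, 64, 39.8, 34.1 and 35.3 CPM and vehicle plus light 72.6, 77.7, 79.5, 76.6 and 57.6. Vehicle 2 was far above the other 4 vehicle libraries and overlapped the group with light. Light changed Vwf here by 0.80 ± 0.17 (SE; edgeR adjusted p = 0.00124), and 1.00 without vehicle 2 (edgeR adjusted p = 5.37e-05). With nanoceria alone Vwf read 74.9, 66.9, 64.8 and 64.1 CPM, and with nanoceria plus light 75.2, 77.1, 79.8, 57.1 and 40.7. Those groups overlapped, with libraries with light both above and below all of those without, and the log2 fold change was -0.04 ± 0.18 (SE; edgeR adjusted p = 0.931). The mean of the 3 responses was 0.47 ± 0.10 (SE; edgeR adjusted p = 0.000317). Beside it, 2 of 6 blood and platelet genes rose and 2 fell in the mean response to light, where 20.5% of all tested genes rose and 16.6% fell. The platelet gene Gp9 (log2 fold change 0.51) and the red cell gene Slc4a1 (1.58) rose, and the platelet genes Pf4 (-0.35) and Itga2b (-0.38) fell. The summed level of 7 such genes ranged from 62.8 to 101 CPM in control, 44.5 to 269 in light damage and 48.4 to 366 in vehicle plus light, and its part in the Vwf result was not tested.

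Vegfa encodes VEGF-A, the ligand of VEGFR2. The controls read 210.2, 215, 179.7, 167 and 179.8 CPM and light damage 182 at the lowest, 223 at the median and 253 at the highest, with overlapping ranges and a log2 fold change of 0.22 ± 0.10 (SE; edgeR adjusted p = 0.13). In the vehicle libraries the level was 190.0, 176, 157, 226 and 228 CPM, and with light 301, 257, 258, 211 and 227. The ranges overlapped through vehicle 4 and 7, the highest of the vehicle group, and the log2 fold change was 0.36 ± 0.11 (SE; edgeR adjusted p = 0.0225). The nanoceria libraries read 184, 191, 211 and 165 CPM, and nanoceria plus light 246, 234, 274, 262 and 219. Every library with light was above every library without, as for 7.11% of all tested genes in that direction, a log2 fold change of 0.40 ± 0.12 (SE; edgeR adjusted p = 0.0211). The mean response of 0.32 ± 0.06 (SE; edgeR adjusted p = 0.000147) stayed called under every alternative and with each library left out. The vehicle call was lost without vehicle 2 (adjusted p = 0.064) or 3 (0.0795) or vehicle plus light 1 (0.0921), with only the libraries of the groups compared (0.118) and with limma-voom (0.0729). The nanoceria call was lost without nanoceria 1 (0.0558) or 5 (0.0922) or nanoceria plus light 3 (0.0589) or 4 (0.0522), with the size factors of DESeq2 (0.0508) and with only the libraries of the groups compared (0.05).

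Angpt2 encodes angiopoietin 2, released by activated endothelium. Its level was 10.8, 10, 12.3, 8.08 and 7.35 CPM in the controls and 11.4 at the lowest, 12.6 at the median and 16.1 at the highest in light damage. The ranges overlapped through control 4, the highest control, and the log2 fold change was 0.45 ± 0.16 (SE; edgeR adjusted p = 0.0398). This call was lost without control 2 (adjusted p = 0.0601), 5 (0.11) or 6 (0.111) or light damage 1 (0.0702), 3 (0.0867) or 6 (0.061), with limma-voom (0.0502) and with a term for Y-linked transcripts (0.0723). After injection the light values were -0.06 ± 0.17 (SE; edgeR adjusted p = 0.884) for vehicle and -0.25 ± 0.18 (SE; edgeR adjusted p = 0.417) for nanoceria. In the vehicle libraries the level was 8.89, 18.3, 13.2, 14.2 and 14.8 CPM, and all but vehicle 1 were above every control. Vehicle plus light held 15.9, 16, 10.7, 14.3 and 9.86 CPM. Nanoceria held 12.1, 16.3, 12.7 and 14.9 CPM without light and 10.7, 14.6, 12.2, 11.5 and 9.97 with it. In both injected states the groups with and without light overlapped.

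Apln encodes apelin, a peptide made by sprouting endothelial tip cells (ENSRNOG00000003984). In the controls its level was 4.78, 4.41, 4, 4.83 and 2.9 CPM and in light damage 4.76 at the lowest, 5.87 at the median and 7.54 at the highest. Only the 2 lowest light damage libraries reached the control range. Apln rose by 0.50 ± 0.16 (SE; edgeR adjusted p = 0.0226) on the log2 scale, and the call was lost without control 4 (adjusted p = 0.0509) or 6 (0.073). The vehicle libraries held 3.99, 3.65, 3.47, 3.1 and 3.02 CPM and vehicle plus light 2.76, 3.81, 4.03, 2.57 and 2.41. The nanoceria libraries held 4.11, 4.01, 3.93 and 3.4 CPM and nanoceria plus light 3.19, 4.51, 4.36, 2.88 and 2.63. After injection the groups with and without light overlapped, with log2 fold changes of -0.14 ± 0.17 (SE; edgeR adjusted p = 0.647) for vehicle and -0.14 ± 0.18 (SE; edgeR adjusted p = 0.7) for nanoceria. The promoter (RefSeq, GRCr8, chrX:132091197-132091496, minus strand, same window) is shown for comparison with that of Kdr.
Apln: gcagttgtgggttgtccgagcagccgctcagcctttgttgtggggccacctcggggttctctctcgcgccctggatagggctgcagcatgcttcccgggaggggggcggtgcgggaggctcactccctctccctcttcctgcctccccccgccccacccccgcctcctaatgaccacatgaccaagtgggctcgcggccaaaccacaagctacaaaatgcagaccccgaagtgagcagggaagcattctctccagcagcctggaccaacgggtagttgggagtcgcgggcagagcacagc
It held no match to the hypoxia core, AP-1 or STAT letters. For Vegfa, Plvap and these 3 genes a RefSeq promoter was matched, 5 of the 10 genes in all. Vegfa had more than 1 window, beginning at 22452604 and 22460028 of chr9. Only Kdr held a hypoxia core match in a window, and sites outside the windows were not searched.

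**Figure D2:**
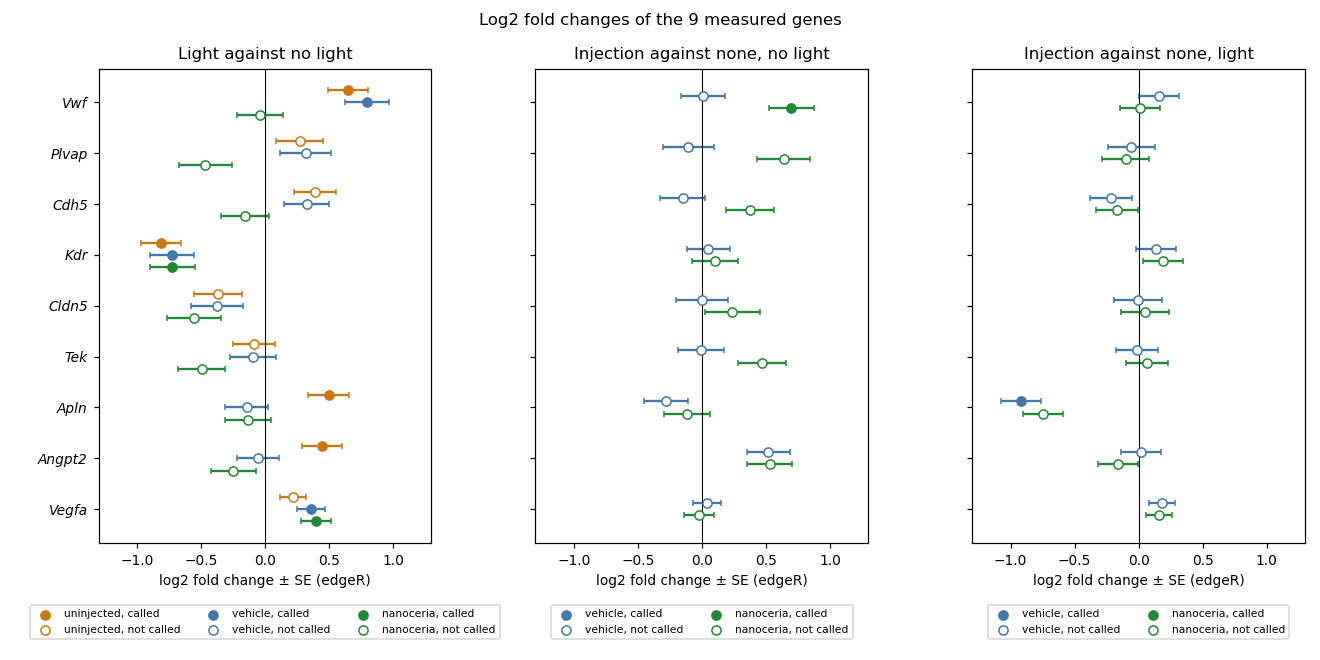
Log2 fold changes with their standard errors (edgeR) of the 9 genes: light against no light in the 3 injection states, and vehicle or nanoceria against no injection without and with light; filled points were called at an adjusted p under 0.05. Kdr is the 1 gene called in all 3 responses to light, and Apln the 1 gene called for an injection under light.

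Injection was compared with no injection to show what the procedure and the particles add. Under light, Apln was lower in both injected groups than in light damage alone. All 10 injected libraries under light, from 2.41 to 4.51 CPM, lay below the 7 that were not injected, from 4.76 to 7.54 CPM. Such a separation in that direction held for 0.105% of all tested genes. Over both injections the change was -0.83 ± 0.13 (SE; edgeR adjusted p = 0.00135), 1 of 9 genes called where 0.486% of all tested genes were (0.304% as lower), and Apln was called under every alternative and with each library left out. Against light damage alone it was -0.92 ± 0.16 (SE; edgeR adjusted p = 0.0093) for vehicle plus light, where 0.122% of all tested genes were called (0.0608% as lower) and the ranges of 0.486% did not overlap in that direction. With only the libraries of those 2 groups in the fit, the adjusted p was 0.0714. For nanoceria plus light it was -0.75 ± 0.16 (SE; edgeR adjusted p = 0.0661), with none of the 9 genes called and 0.0608% of all tested genes called. Ranges without overlap in that direction were seen for 0.282% of tested genes, and the value was called by the Wald test of DESeq2 (adjusted p = 0.00192), by limma-voom (0.0401) and without nanoceria plus light 2 (0.0488) or 3 (0.0488). Both comparisons share the light damage libraries. No other of the 9 genes was called for injection under light, and the other values lay between -0.19 (Cdh5) and 0.17 (Vegfa) for both injections together.

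Without light, 1 of the 9 genes was called in nanoceria against control, where 2.46% of all tested genes were called and 1.73% as higher. Vwf was higher by 0.70 ± 0.18 (SE; edgeR adjusted p = 0.0298). All 4 nanoceria libraries were above every control for Vwf, Plvap and Tek, as for 4.24% of all tested genes in that direction. The log2 fold changes of Plvap and Tek were 0.64 ± 0.21 (SE; edgeR adjusted p = 0.108) and 0.47 ± 0.19 (SE; edgeR adjusted p = 0.218). The Plvap libraries were 55.6, 79.8, 78 and 78.5 CPM, with nanoceria 1 well below the other 3. Against vehicle, ranges did not overlap for Vwf, Plvap and Cdh5, as for 1.94% of all tested genes in that direction. The log2 fold changes there were 0.69 ± 0.18 (SE; edgeR adjusted p = 0.318), 0.74 ± 0.21 (SE; edgeR adjusted p = 0.379) and 0.53 ± 0.19 (SE; edgeR adjusted p = 0.572). No gene of the 18094 was called in that comparison by edgeR, a percentage of 0, while 1021 had an unadjusted p under 0.05 and the Wald test of DESeq2 called 24 as higher and 16 as lower, none of them among the 9. Limma-voom called 799 genes as higher and 687 as lower, with 4 of the 9 as higher (Vwf, Plvap, Cdh5 and Tek). Without vehicle 2, edgeR called Vwf (0.89, adjusted p = 0.0483). Tek had the only group that did not overlap its neighbour in the order of means. This was nanoceria, at 35.9 ± 2.74 CPM (SD, n = 4), above control at 25.9 ± 3.19 CPM (SD, n = 5). From 32.31 CPM up, the nanoceria libraries still overlapped vehicle, which reached 32.38, and nanoceria plus light, which reached 36.69. The Vwf call against control was lost without control 1 (adjusted p = 0.0701), 2 (0.0945) or 5 (0.057) or nanoceria 1 (0.11), 2 (0.0723) or 3 (0.0643), and with the replicate number as a block (0.13). Of 21 other endothelial genes, 5 were called higher in nanoceria than in control and 21 had a positive log2 fold change (median 0.49, against -0.04 for all tested genes). Ecscr, an endothelial surface protein, was at 0.59 ± 0.14 (SE; edgeR adjusted p = 0.0179), and Egfl7, a matrix protein made by endothelium, at 0.64 ± 0.14 (SE; edgeR adjusted p = 0.0127). Beside this, 6 of 10 microglia and macrophage genes were called higher, among them Aif1 at 1.13 ± 0.21 (SE; edgeR adjusted p = 0.00453) and C1qa at 1.25 ± 0.24 (SE; edgeR adjusted p = 0.00459). Their summed level was 243 to 372 CPM in nanoceria and 146 to 214 in control, and its part in the result was not tested. In the mean response to light 3 of these 10 genes rose and 2 fell, where 20.5% of all tested genes rose and 16.6% fell.

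Vehicle alone changed none of the 9 genes over control, where 0.0221% of all tested genes were called and 1462 had an unadjusted p under 0.05. Angpt2 had the largest log2 fold change, 0.52 ± 0.17 (SE; edgeR adjusted p = 0.416); limma-voom called it (adjusted p = 0.0192), and Apln as lower (0.0368). For both injections together without light, 1.07% of all tested genes were called and none of the 9, with Angpt2 at 0.52 ± 0.15 (SE; edgeR adjusted p = 0.0815). It was called by the Wald test of DESeq2 (adjusted p = 0.0196), by limma-voom (0.0204) and without vehicle 1 (0.0314). Nanoceria plus light against vehicle plus light tests what the particles add under light. No gene of the 18094 was called there by edgeR, a percentage of 0, and 257 had an unadjusted p under 0.05. The Wald test of DESeq2 called 4 genes and limma-voom 0, none of them among the 9. The 9 log2 fold changes ranged from -0.18 (Angpt2) to 0.17 (Apln).

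Whether the response to light itself differed was tested as an interaction, for vehicle against no injection and for nanoceria against vehicle. None of the 9 genes was called for vehicle against no injection, where 0.0442% of all tested genes were called. For Apln the difference between the vehicle and uninjected responses was -0.64 ± 0.23 (SE; edgeR adjusted p = 0.606), with an unadjusted p of 0.0099. For Angpt2 the interaction was -0.50 ± 0.23 (SE; edgeR adjusted p = 0.808), with an unadjusted p of 0.0371. For nanoceria against vehicle no gene was called by edgeR, a percentage of 0, while 415 genes had an unadjusted p under 0.05, and the Wald test of DESeq2 called 1 gene and limma-voom 0. Vwf had the largest difference of the 9, -0.83 ± 0.24 (SE; edgeR adjusted p = 1), with an unadjusted p of 0.00211, and Plvap was at -0.78 ± 0.29 (SE; edgeR adjusted p = 1), with an unadjusted p of 0.0109. Without nanoceria plus light 5 these were -0.70 and -0.65, with an edgeR adjusted p of 1 for both. The call of Vwf with light in the vehicle state, and its absence in the nanoceria state, are thus not shown to differ. The nanoceria response was not tested against the uninjected response. The response of Kdr differed by 0.00 ± 0.25 (SE; edgeR adjusted p = 1) between the nanoceria and vehicle states and by 0.09 ± 0.23 (SE; edgeR adjusted p = 0.994) between the vehicle and uninjected states.

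The 9 genes did not move as a unit, so each was also set against other endothelial genes of the same library. The mean log2 CPM of 21 endothelial genes outside the 9 was subtracted from that of each gene, and the difference between light and no light was tested by a 2-sided exact permutation test over libraries, 27 tests in all (9 genes in 3 injection states) with Benjamini-Hochberg adjustment over them. Without injection, the level of Kdr relative to those genes changed by -1.25 on the log2 scale, from 4.82 in control to 3.56 in light damage. The exact p was 0.00126, the smallest this design allows, and the adjusted p was 0.017. Only the change is read, since CPM are not divided by gene length. Tek, at -0.53 (exact p = 0.00126, adjusted p = 0.017), and Cldn5, at -0.80 (exact p = 0.00379, adjusted p = 0.0306), were also lower relative to the 21 genes. After vehicle the same 3 genes were lower, with Kdr at -1.02, Cldn5 at -0.65 and Tek at -0.35, and Vwf was higher at 0.58 (each exact p = 0.00794, the smallest this design allows, and adjusted p = 0.0306). Apln was lower at -0.42 (exact p = 0.0159, adjusted p = 0.0476). Such relative values also fall where the 21 genes rise, and their median rose with light in the uninjected and vehicle states, as given below. Tek by itself was not called in either state (log2 fold change -0.09 in both, edgeR adjusted p = 0.772 and 0.798). Its lower relative value is thus not by itself a fall of Tek. After nanoceria Vegfa was higher at 0.60 (exact p = 0.0159, adjusted p = 0.0476), while Kdr stood at -0.54 (exact p = 0.127, adjusted p = 0.245). In all, 9 of the 27 tests passed an adjusted p of 0.05. Without vehicle 1, 3, 4 or 7, and with each near-identical pair averaged to 1 library, this was 3 of 27, and Kdr after vehicle then had an adjusted p of 0.0536; the Vegfa value after nanoceria was 0.49 (adjusted p = 0.0771) without nanoceria plus light 5.

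**Figure D3:**
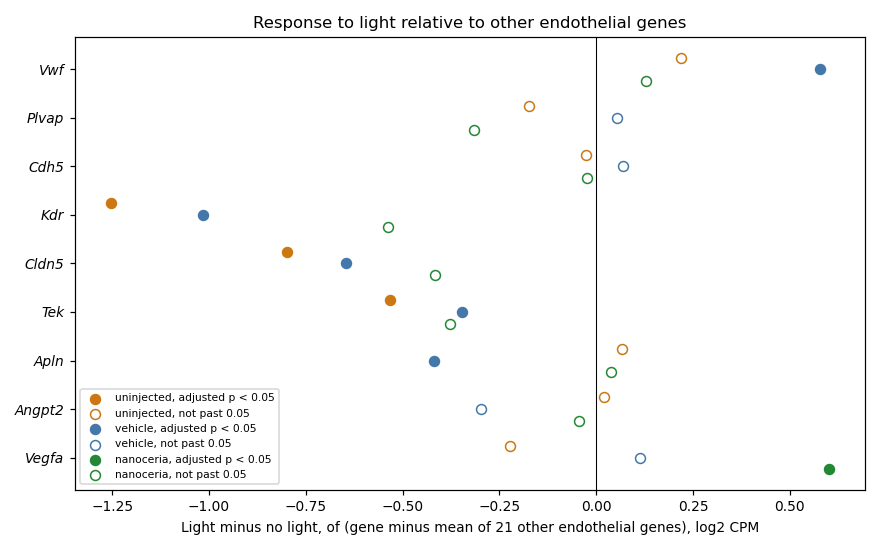
Response to light of each of the 9 genes after subtracting the mean log2 CPM of 21 other endothelial genes in the same library, in the 3 injection states; filled points passed an adjusted p of 0.05 (exact permutation tests, 27 in all). Kdr, Cldn5 and Tek lie left of 0 in all 3 states and are filled in the uninjected and vehicle states. A point left of 0 can also come from a rise of the 21 genes.

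Among libraries of 1 group, Cdh5, Tek, Plvap and Vwf varied together, and Kdr did not vary with them. These correlations describe libraries that share groups and depth. After subtracting group means, Pearson's r was 0.866 for Cdh5 with Tek, 0.843 for Plvap with Tek, 0.787 for Plvap with Cdh5 and 0.644 for Vwf with Tek (n = 31). For Kdr it was -0.143 with Cdh5, 0.015 with Tek and -0.081 with Plvap. Cldn5 was tied to them weakly, with r of 0.209 with Plvap, 0.299 with Cdh5, 0.287 with Tek and 0.45 with Vwf. Among 13124 genes ranked for each, the closest to Cdh5 was Fgd5 (r = 0.914 on log2 CPM), to Tek Adgrf5 (0.909), to Plvap Mmrn2 (0.875) and to Vwf Serping1 (0.88), followed by Eng (0.864), the endothelial co-receptor endoglin. For Kdr the closest were Gpr37 (0.972), Ptch1 (0.964) and Ttyh1 (0.96). With group means subtracted, they included Gpr37 (0.923) and Dgkb (0.902), neither of them in the endothelial lists used here. The cells that held the Kdr RNA were not identified, so its level in whole retina cannot be read as that of endothelium alone. The part of glia or neurons in the fall of Kdr with light was not tested. Gpr37 ranged from 87.4 to 132 CPM in control and from 34.7 to 62.9 in light damage. For Cldn5 the closest were Thnsl2 (0.818) and Vegfc (0.804), for Vegfa Msantd2 (0.881), for Angpt2 the mitochondrial genes Mt-nd1 (0.799) and Mt-nd2 (0.774), and for Apln Ablim3 (0.675).

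**Figure D4:**
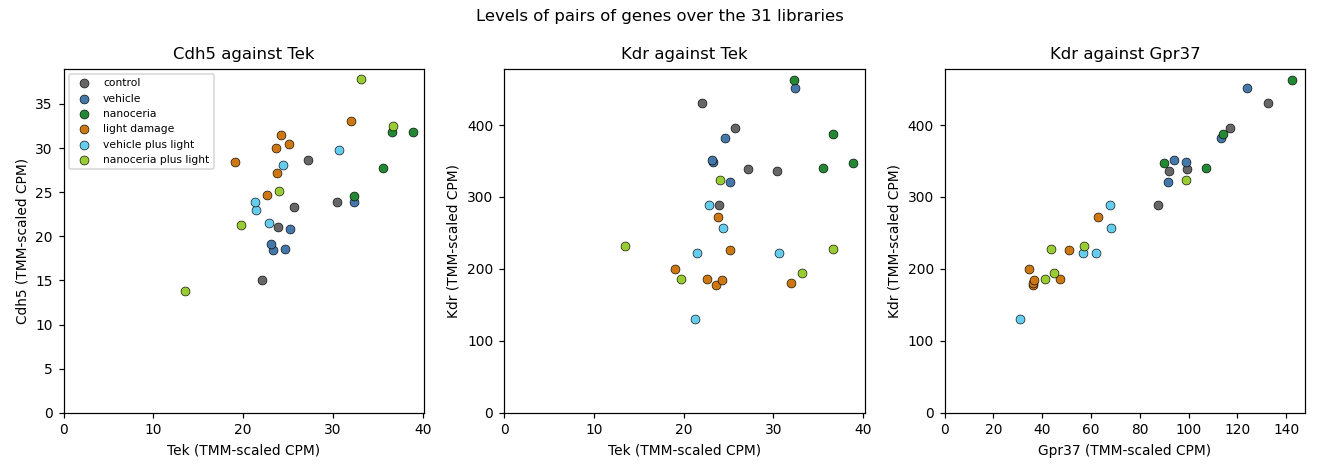
Level of Cdh5 against Tek, of Kdr against Tek and of Kdr against Gpr37 (TMM-scaled CPM, linear axes from 0) in the 31 libraries, coloured by group. Cdh5 follows Tek over the libraries (r = 0.866 with group means subtracted), Kdr does not (0.015), and Kdr follows Gpr37 (0.923).

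Other genes of the endothelium and of its signals give the setting of these 9, from lists chosen for this tissue. Of 21 other endothelial genes, 9 rose and none fell with light without injection (median log2 fold change 0.41), 6 rose and none fell after vehicle (0.27), and 1 rose and 2 fell after nanoceria (-0.17). Of all tested genes, 11.9% rose and 10.6% fell without injection, 9.67% and 7.17% after vehicle, and 8.15% and 5.78% after nanoceria. These shares stand beside the counts of every list below. Ecscr went from 1.92 ± 0.357 CPM (SD, n = 5) in control to 4.94 ± 0.497 CPM (SD, n = 7) in light damage, with ranges of 1.6 to 2.52 and 3.87 to 5.29. Its mean response over the 3 states was 0.83 ± 0.07 (SE; edgeR adjusted p = 7.01e-10). Nos3, the endothelial nitric oxide synthase, rose by 0.76 in the mean response, Rasip1, a regulator of vessel tube formation, by 0.38, and the junction protein gene Esam by 0.29. The counts over injection states were not tested against each other. Under light, Ecscr was lower in injected than in uninjected retinas, at -0.44 ± 0.10 (SE; edgeR adjusted p = 0.0354), and Egfl7 stood at -0.43 ± 0.10 (SE; edgeR adjusted p = 0.05).

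Among 16 other junction and transporter genes of the barrier, 6 fell and none rose without injection, 3 fell and none rose after vehicle and 4 fell and none rose after nanoceria. In the mean response 6 fell and 1 rose, where 16.6% of all tested genes fell and 20.5% rose. Cav1, the caveolin of endothelial vesicles, which glia also express, fell from 209.8 ± 19.5 CPM (SD, n = 5) in control to 123 ± 20.02 CPM (SD, n = 7) in light damage. Its mean log2 fold change was -0.69 ± 0.07 (SE; edgeR adjusted p = 2.86e-09), and it was called in all 3 states. The junction protein gene Jam2 fell by 0.45 on the log2 scale and was called in all 3 states. Slco1a4, an organic anion transporter of brain capillaries, fell by 0.46 and was called in 2 of the 3. Several of these genes are also expressed outside endothelium. Of 8 Müller glia and astrocyte genes, 4 fell and 2 rose in the mean response (Glul, glutamine synthetase, was at -0.74 and Gfap, which reactive glia make, at 1.42), with a summed level of 3835 to 5156 CPM in control and 2555 to 3575 in light damage, and their part in these falls was not tested.

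Norrin and Wnt ligands act through beta-catenin to keep the retinal barrier. Of 9 genes of that pathway tested, 3 rose and none fell without injection, where 11.9% of all tested genes rose. In each of the other states 1 rose and none fell, where 9.67% (vehicle) and 8.15% (nanoceria) of all tested genes rose. A count of 1 of 9 does not set the list apart. Apcdd1, a target of the pathway that tunes it in retinal endothelium, went from 27.1 ± 3.77 CPM (SD, n = 5) to 42.7 ± 2.24 CPM (SD, n = 7) without injection and had a mean response of 0.53 ± 0.05 (SE; edgeR adjusted p = 6.6e-10), called in all 3 states. The targets Axin2 and Lef1 rose by 0.24 and 0.27 in the mean response, and were called alone only without injection. Tspan12, a co-receptor for norrin, was at 0.22 ± 0.11 (SE; edgeR adjusted p = 0.12).

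Of 19 other genes of VEGF, angiopoietin, apelin and tip cell signalling, 6 rose and none fell without injection, 5 rose and 1 fell after vehicle, and 3 rose and 6 fell after nanoceria. Flt1, the decoy receptor for VEGF-A, moved the other way from Kdr. It stood at 52.6 ± 5.13 CPM (SD, n = 5) in control and 102 ± 17 CPM (SD, n = 7) in light damage, with ranges of 46.5 to 59.2 and 84.7 to 137. Its mean response was 0.85 ± 0.08 (SE; edgeR adjusted p = 2.96e-09), called in all 3 states. Angptl4, a secreted protein induced by fasting and hypoxia, rose by 1.97 ± 0.13 (SE; edgeR adjusted p = 1.04e-12). Adm, which encodes adrenomedullin, rose by 0.97, and Unc5b, a netrin receptor of endothelium, by 0.58. Under light, Notch4 was higher in injected than in uninjected retinas, at 0.71 ± 0.14 (SE; edgeR adjusted p = 0.0135), and Pdgfb, which recruits pericytes, stood at -0.36 ± 0.10 (SE; edgeR adjusted p = 0.0887).

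The hypoxia response genes listed here had no common direction. Angptl4, named above as induced by hypoxia and higher with light, was counted in the list before and is not among them. Of 14, 2 rose and 3 fell without injection, 1 rose and 3 fell after vehicle, and 2 fell after nanoceria. Ddit4 and Ndrg1, both stress-induced, fell by 0.56 and 0.43 on the log2 scale in the mean response. Vldlr, a lipoprotein receptor, and Pfkfb3, a regulator of glycolysis, rose by 0.35 and 0.32.

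Genes of endothelial activation and haemostasis had the highest share called of the vascular lists. Of 11 tested, 8 rose and none fell without injection (median log2 fold change 1.31), 8 rose after vehicle (1.28) and 7 rose after nanoceria (0.83). Icam1, an adhesion molecule that leukocytes bind, went from 11.7 ± 2.23 CPM (SD, n = 5) to 79.9 ± 9.7 CPM (SD, n = 7) without injection, with a mean response of 2.14 ± 0.11 (SE; edgeR adjusted p = 4.77e-15). Sele, E-selectin, which is made by activated endothelium, went from 0.962 ± 0.0939 CPM (SD, n = 5) to 10.3 ± 5.16 CPM (SD, n = 7). In injected retinas under light Sele was lower than in uninjected ones, at -1.25 ± 0.26 (SE; edgeR adjusted p = 0.0215), and Icam1 stood at -0.47 ± 0.13 (SE; edgeR adjusted p = 0.128). Selp, P-selectin, stored with von Willebrand factor, rose by 2.35, and Lrg1, a secreted glycoprotein, by 1.62.

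Pericyte and smooth muscle genes changed little by count: of 14, none was called without injection, 1 rose after vehicle and 1 fell after nanoceria. In the mean response Pdgfrb, the pericyte receptor for PDGF, fell by 0.26 and Rgs5 by 0.32 on the log2 scale, Cspg4 rose by 0.42, and Kcnj8 was at -0.19 ± 0.10 (SE; edgeR adjusted p = 0.142). Of 10 genes of pigment epithelium and choroid, whose vessels express Plvap, 3 fell and 1 rose in the mean response to light. That count is close to the 37.1% of all tested genes called there (16.6% as lower, 20.5% as higher). Rpe65 was at -0.82 ± 0.18 (SE; edgeR adjusted p = 0.000646). The summed level of the 10 genes was 3750 to 5803 CPM in control and 3621 to 5487 in light damage. Their part in the levels of the 9 genes was not tested.

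**Figure D5:**
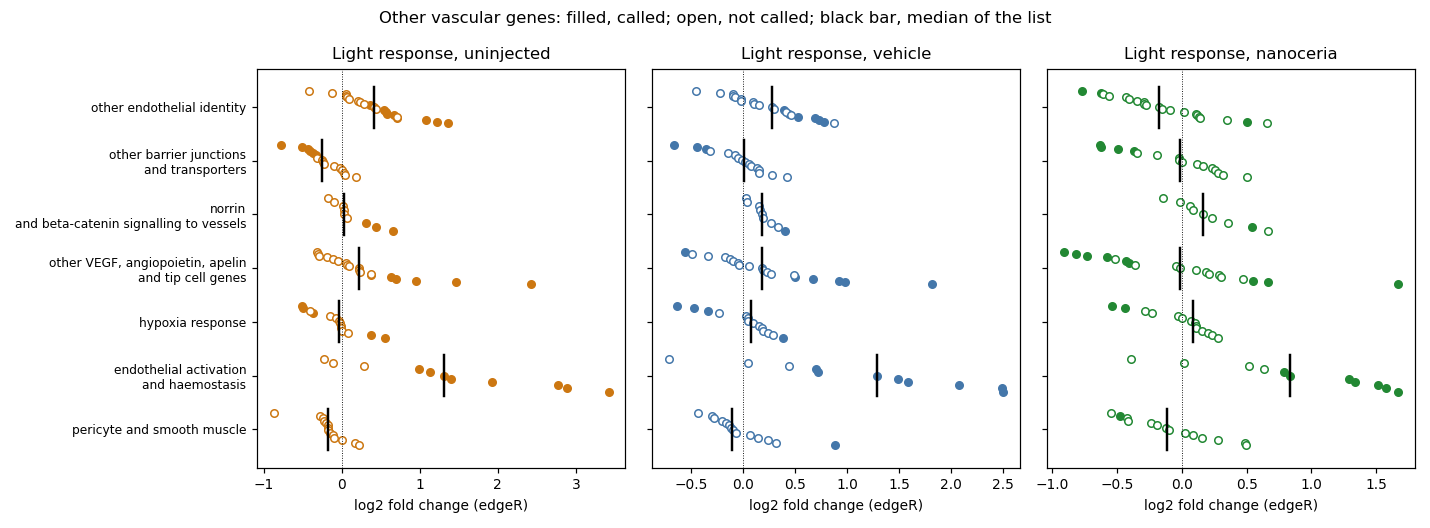
Log2 fold changes (edgeR) with light of single genes in 7 vascular lists, in the uninjected, vehicle and nanoceria states; filled points were called at an adjusted p under 0.05 and the black bar is the median of the list. The activation list lies highest in each state, and the median of the other endothelial genes is 0.41, 0.27 and -0.17 in the 3 states.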

How the data were processed

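The libraries were made from polyA RNA of rat retinas in 6 groups and read from both ends, per the labels. The authors deposited raw counts per gene: the values are whole numbers, and their totals vary from library to library. The tools named are, per the submitters' processing notes, Trimmomatic 0.39, STAR 2.7.9a, featureCounts of Subread 2.0.1, DESeq2 1.30.1 and R 4.0, with build rn6. The sources used here give neither their roles nor the annotation or strand setting, so reads of overlapping or antisense genes cannot be told apart.

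Counts of the 31 libraries were tested by quasi-likelihood in edgeR 4.0.16 (TMM-scaled, robust, with 1 term for each group and no covariate) in R 4.3.3. The filter (filterByExpr, minimum count 10, minimum total 15) kept 18094 genes and left out 14529, of which 9389 had 0 counts throughout. P-values were Benjamini-Hochberg adjusted over the 18094 genes, and those under 0.05 are the genes said to be called, to rise or to fall. Fits were tested on simulated counts. Log2 CPM used a prior count of 2, and the exact permutation tests went through every split of the libraries in Python 3.11.15 with numpy 2.4.6. P-values measure the spread between these libraries, which the labels call biological replicates.

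The 9 measured genes are given for each response to light, and in the other comparisons those called, without overlap or largest are named. From each vascular list the text names the 4 genes with the smallest p in the mean response to light and, where a list has a called gene in an injection comparison, the 2 with the smallest p there; for each of the 9 it names up to 3 genes with the highest correlation. A few genes that this rule picks are not reported here. The genes and lists were chosen with earlier results of these data known. Robo4, Ackr1, Ca4, Hba-a1 and Itgam had no row of that name, and Ndp and Ppbp did not pass the filter. Ndp, which encodes norrin, was at 0 in all libraries. Whether its RNA was absent or its reads were not counted under the annotation used cannot be told. Promoters are from RefSeq (GRCr8), matched by symbol for 5 of the 10 genes. As alternatives served scaling by DESeq2 1.42.0 size factors or by library size alone, no filter, a fit to only the libraries compared, limma-voom with quality weights (limma 3.58.1), the DESeq2 Wald test, a replicate block, a term for libraries with high Y-linked transcripts, the near-identical pairs summed (or averaged for the permutation tests, chosen after seeing the data), a prior count of 0.5, the median in place of the mean of the other endothelial genes, and each library left out.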

Additional observations from a re-analysis of the deposited data

Results flagged for a closer look

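In 4 of 54 sets of libraries (9 genes in 6 groups) the highest or lowest library lay far from the rest by Dixon's criterion, which chance meets in about 1 of 20. Vwf was high in vehicle 2, at 63.97 CPM, and so was Tek in the same library, at 32.38 CPM; 19 of the 21 other endothelial genes were above the group mean there too. Plvap was high in vehicle plus light 3, at 80.32 CPM, and low in nanoceria 1, at 55.59 CPM. Sets of more than 5 libraries were held to the limit for their size.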

How the results depend on the processing

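Beside the values given with the genes above, the number of the 9 members called changed by more than 1.5 times in these cases. With light after vehicle it was 5 with limma-voom in place of 3. With light after nanoceria it was 1 with the size factors of DESeq2 or with only the groups compared and 4 with the Wald test of DESeq2, in place of 2. For nanoceria against control it was 2 with the Wald test or limma-voom, 3 with only the groups compared and 0 with the replicate block, in place of 1. Limma-voom called 2 for vehicle against control and 4 for nanoceria against vehicle, in place of 0. For vehicle plus light against light damage it was 0 with only the groups compared, in place of 1; for nanoceria plus light against light damage 1 with the Wald test, limma-voom or the replicate block, in place of 0; and for any injection without light 1 with the Wald test or limma-voom, in place of 0. With each library left out the counts ran from 2 to 4 for light alone, 2 to 3 after vehicle, 1 to 3 after nanoceria, 4 to 5 for the mean response, 0 to 1 for nanoceria against control, nanoceria against vehicle, nanoceria plus light against light damage and any injection without light, 1 to 1 for vehicle plus light against light damage and any injection under light, and 0 to 0 for the rest; tests against other endothelial genes passed in 3 to 10 cases in place of 9, and in 3 with each near-identical pair averaged. No direction of a called member reversed. The cause of these changes was not tested. No label says that a replicate number marks a shared animal or batch, and the replicate numbers were not taken as pairs in the main fit. The deviations of same-numbered libraries had correlations from -0.353 to 0.381 over 60 pairs, 23 of them over 0.1. In addition, 12 of 31 libraries correlated best with their own number, a hint of some sharing. The library names also carry running numbers in which libraries of the same replicate number follow each other, and what these numbers mark is not stated. The 4 to 7 libraries a group limit the precision, and the part of counting error in the spread was not measured.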
